A study of Mus musculus with 10 samples.

Results

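The genes described here are 76 of the 29955 genes counted in a mouse leukaemia line, chosen because their RNA was low in a line carried for the longest time in solvent and was held in lines carried to the same step under dasatinib. A gene entered when it had at least 2 CPM (counts scaled to 1000000 per library) in both parental libraries and a DMSO 16x value below 0.25 of the parental mean. Each dasatinib 16x library also had to reach at least 0.5 of that mean. Of 9711 genes with the parental minimum, 160 (1.65%) met the limit in DMSO 16x, and 76 of these were held in every dasatinib 16x library. The parental, DMSO 16x and dasatinib 16x values therefore chose the members and are given as descriptions. The DMSO 1x and dasatinib 1x libraries did not enter the choice.

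The line is a murine Ph+ acute lymphoblastic leukaemia line with the p185 form of BCR-ABL1, grown in culture, and RNA was sequenced in 10 libraries. Dasatinib 1x (3 libraries, A to C) and dasatinib 16x (3 libraries, A to C) were lines that grew out under the drug at 1 and 16 times its IC90, a near-maximal inhibitory concentration. DMSO 1x and DMSO 16x, 1 library each, had been carried with the solvent alone over the same steps, and the parental line (2 libraries, A and B) had no treatment. Every group carries the fusion gene. All lines derive from 1 parental line, and whether that line is a clone is not given in the labels. The labels also do not say which 1x line gave which 16x line, so the 1x and 16x libraries are related and not separate experiments.

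BCR-ABL1 is a constitutively active tyrosine kinase that drives growth of immature B-lineage cells, and dasatinib inhibits the ABL kinase and the SRC family kinases. A leukaemia line is a population of cells that can differ in the genes they use, and long culture or a drug can change which of these cells prevail. In bulk RNA, fewer cells that express a gene and less of its RNA in every cell cannot be told apart. The 76 genes include lymphocyte genes such as Dntt and Tnfsf4, signalling enzymes, enzymes of lipid and sugar metabolism, RNA-binding proteins and zinc finger genes.

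Library totals ran over 29049760 to 45813092 counts. Several B-lineage markers were abundant in every library, with Cd79a at 493 to 639 CPM and Vpreb1 at 491 to 573 CPM. Others on the same list were not, with Ebf1 at 0.0945 to 0.726 CPM and Syk at 0.142 to 0.402 CPM. Blk had 4.64, 5.5 and 5.37 CPM in dasatinib 1x, against 34.1 CPM in DMSO 1x. Summed over 31 pro-B and pre-B genes, the level was 7936 to 8045 CPM in dasatinib 1x, 7593 to 8116 in dasatinib 16x, 8669 in DMSO 1x, 8927 in DMSO 16x and 8272 to 8313 in the parental line. The 18 myeloid markers in the table summed to 7.77 to 11.9 CPM over all libraries, and 7 of them, among them Elane, Ctsg, Cebpa and S100a8, were at 0 throughout. Of 22 T and NK cell markers, 5 were at 0 throughout, among them Cd4 and Cd8b1. Their sum was 251 to 260 CPM in dasatinib 1x, 347 to 356 in dasatinib 16x, 231 in DMSO 1x, 280 in DMSO 16x and 197 to 204 in the parental line, mostly from Cd2. Of 14 stromal markers, 4 were at 0 throughout (Col3a1, Dcn, Lum and Vcam1), and the sum of 475 to 761 CPM was almost all Vim, which B cells also express. Of 16 erythroid and megakaryocytic markers in the table, 1 was at 0 throughout, and the sum of 705 to 1064 CPM was mostly Tfrc, which dividing cells in general express. Apart from that sum, the globin gene Hbb-b1 and the erythroid spectrin gene Spna1 moved with the groups. Hbb-b1 had 3.85, 4.21 and 3.49 CPM in dasatinib 1x, 26.2, 24.7 and 16 in dasatinib 16x, 11.2 in DMSO 1x, 34.6 in DMSO 16x and 4.44 and 4.09 in the parental line. Spna1 had 10.7, 8.34 and 6.73 CPM in dasatinib 1x, 8.27, 5.14 and 2.65 in dasatinib 16x, 0.0549 in DMSO 1x, 0 in DMSO 16x and 0.0344 and 0.121 in the parental line. The part of cells with these markers in the members' values was not tested.

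In DMSO 16x the 76 members lay between 1.11% and 24.7% of their parental mean, with a median of 11.6%. DMSO 1x stood in the middle, at a median of 65.2% with quartiles of 58.9% and 72.2%. Dasatinib 1x had a median of 109% (quartiles 97.4% and 126%), and dasatinib 16x one of 102% (quartiles 81.8% and 123%). Over all 9711 genes with the parental minimum the medians were 98.8% in dasatinib 1x, 99% in dasatinib 16x, 99.7% in DMSO 1x and 99% in DMSO 16x. Most members were thus lower at each DMSO step, and the middle of their range stayed near the parental level in the dasatinib lines.

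**Figure D1:**
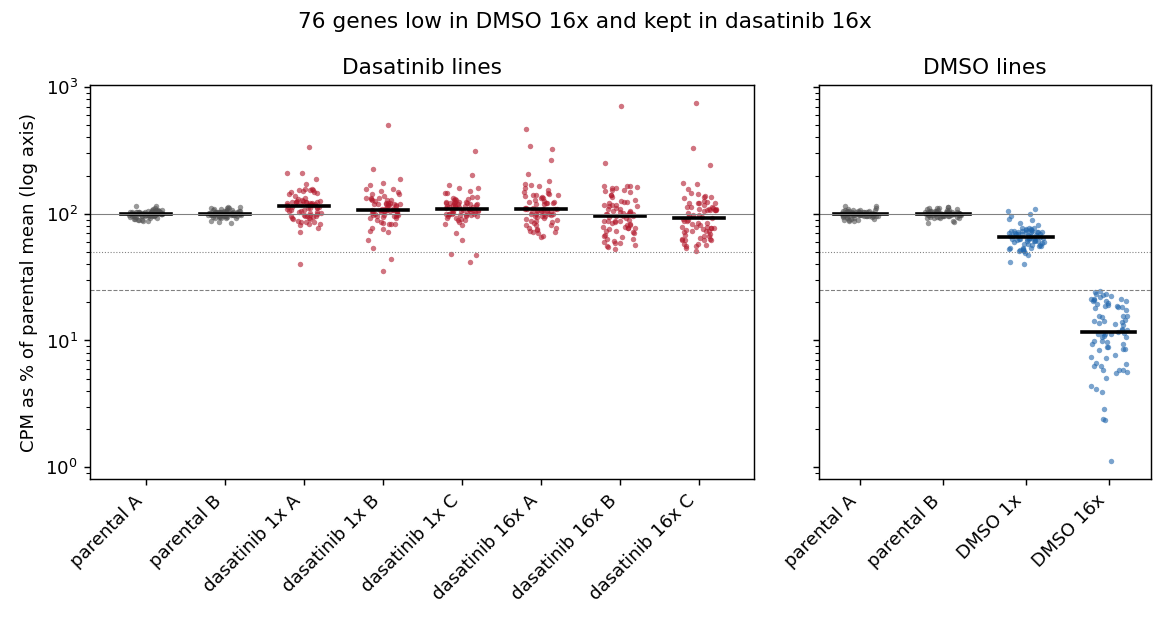
Level of each of the 76 members in each library as a percent of its parental mean, on a log axis, with a point per gene and black lines at the medians; the left panel holds the dasatinib lines and the right panel the DMSO lines. The dasatinib medians lie between 91.8% and 115%, DMSO 1x lies at 65.2% and DMSO 16x at 11.6%; the dotted line marks 50% and the dashed line 25%, the limits used to choose the members.

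The DMSO 1x library was below both parental libraries for 73 of the 76 members (96.1%), against 44.7% of all genes. For Eid1 and Bbs7 it was above both, and for Nid2 it lay between them. A fall below 0.5 of the parental mean was already present at 1x for 4 members (5.26%), Prokr1, Zc3h12b, Nov and Pion, against a background of 0.299% of all genes. Neither trait was particular to the members. Of the other 84 genes that met the limit in DMSO 16x, 82 (97.6%) were below both parental libraries at 1x and 11 (13.1%) below 0.5 of the mean. As a share of the distance that separates DMSO 16x from the parental line, the median member had covered 39.8% of it at 1x, with quartiles of 32% and 46.8%. That share ran over −10.4% for Bbs7 to 72.4% for Zc3h12b. The depth at 1x and at 16x had a Pearson correlation of 0.28 and a Spearman correlation of 0.31 over the 76 members, between the log2 ratios. Both ratios share the parental denominator, and the limit on DMSO 16x that chose the members cut the range of the second, which bears on these values.

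The members' closest neighbours at each limit show how sharp the choice was. In DMSO 16x, Nck2 at 24.7% and Utrn at 24.1% of parental were just inside, and 4831440E17Rik at 25.3% and Tbc1d24 at 25.4% just outside. In the lowest dasatinib 16x library, Prokr1 at 50.5% and Nlrc3 at 52.2% were just inside, and Rasgrp1 at 49.5% and Il27ra at 49% just outside. In the lower parental library AK040231 and Zfp248, both at 2.1 CPM, were just inside, and Myo10 and Esrrb, both at 1.96 CPM, just outside.

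Dasatinib 1x (n = 3) was set against DMSO 1x (n = 1), to ask whether the difference was already there at the first step. The values of neither side had entered the choice. The lines of the later step, whose values did enter it, are related to these lines. The choice can therefore favour genes that already differed at 1x. The shares of members set against all genes below are thus not independent of the choice. Every dasatinib 1x library was above DMSO 1x for 69 members (90.8%), against 33% of all genes, and every one was below it for 5 members, against 39.8%. In the edgeR quasi-likelihood test, adjusted by Benjamini and Hochberg over 12993 genes, 42 of the 76 members were higher in dasatinib 1x, against 6.65% of all genes tested. No member was lower at an adjusted p of 0.05, against 6.99% of all genes tested. The log2 change was positive for 71 members, against 6463 of the 12993 genes tested. Its median over all 76 was 0.78, against −0.001 over all genes tested. The called members changed by 0.39 to 1.73 on the log2 scale, and 18 of them reached 1. DMSO 1x is 1 library, and its spread was assumed to be that of the replicated groups. The standard errors came from all 5 groups, the libraries that chose the members included. When the change itself was tested against a 2-fold threshold, 0 members passed, against 4 genes higher over the table.

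**Figure D2:**
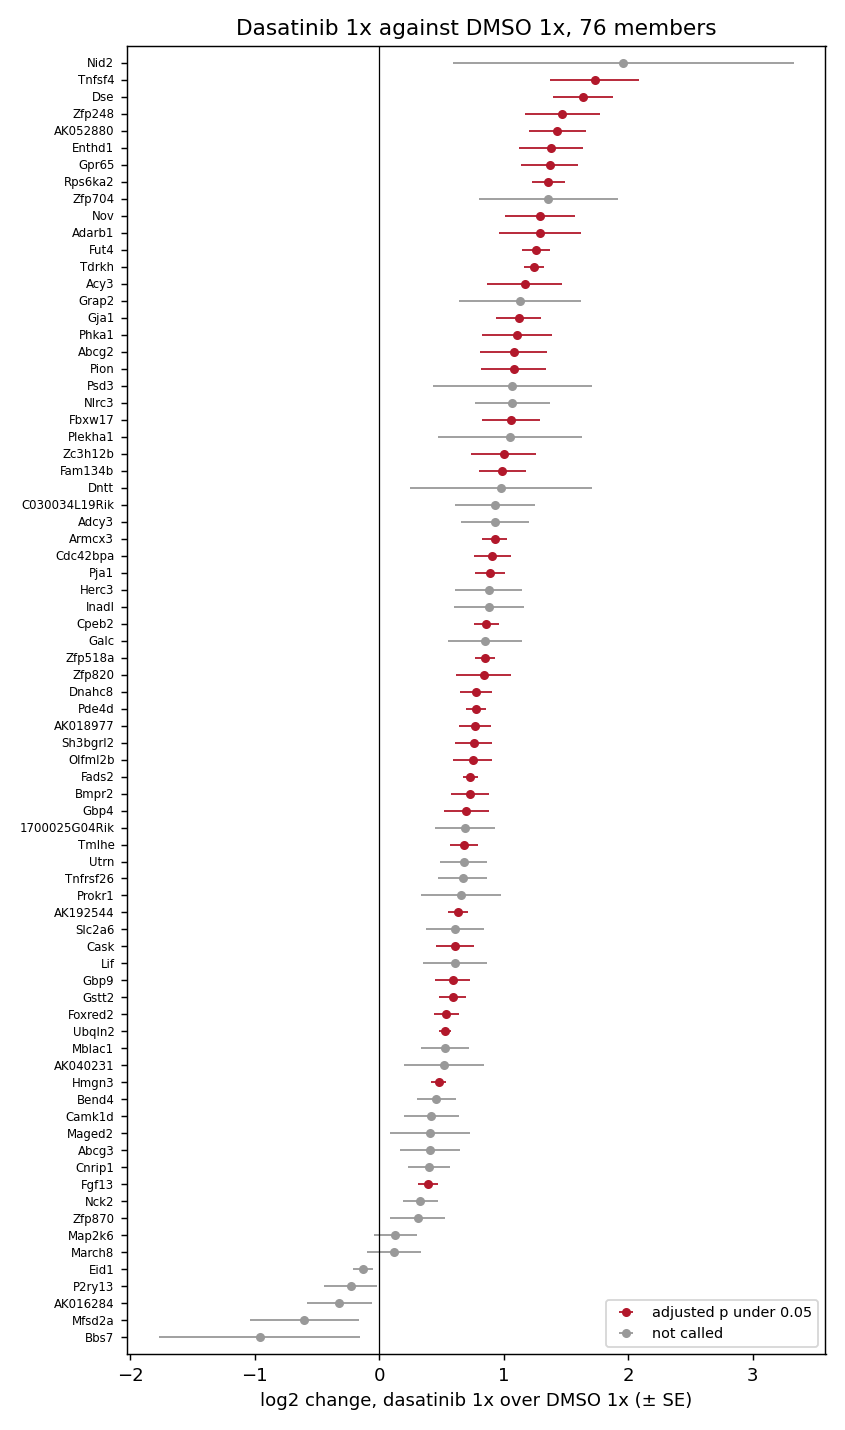
Log2 change in dasatinib 1x over DMSO 1x for each of the 76 members, with the standard error as a bar, ordered by size; red points passed an adjusted p of 0.05 in edgeR. The 42 called members all lie to the right of 0, between 0.39 and 1.73, and the 5 members left of 0 did not pass.

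Members were grouped by what their proteins do, and the groups were made with the values known. Over all 76 members 42 were called higher, against 6.65% of all genes tested. The groups are small, and whether they differ from one another was not tested. All 4 RNA-binding and RNA-editing members were higher in dasatinib 1x than in DMSO 1x. Of the other groups, 7 of 9 metabolic members, 4 of 5 protein turnover members, 4 of 7 contact, scaffold and matrix members and 6 of 14 signalling members were higher. Further, 4 of 8 chromatin and zinc finger members, 4 of 11 immune members, 1 of 4 transporters and 8 of 14 ungrouped members were called, all higher.

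Among the RNA-binding members, Tdrkh encodes a Tudor and KH domain protein of the piRNA pathway in germ cells. It had 52.4, 52.5 and 50.4 CPM in dasatinib 1x, against 22.1 CPM in DMSO 1x. At the later step it had 48.7, 46.3 and 52 CPM in dasatinib 16x, against 1.7 CPM in DMSO 16x, and the parental libraries had 38.6 and 39.7 CPM. All 6 dasatinib libraries lay above both parental ones, and the DMSO libraries below them in order of step. The log2 change of dasatinib 1x over DMSO 1x was 1.24 ± 0.08 (SE; adjusted p = 1.23e-06 by edgeR), the smallest p of all members. In DMSO 16x the level was 4.33% of parental, with a 95% interval of 3.31% to 5.54% from an exact binomial ratio, which, like the other such intervals here, covers counting error only.

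Adarb1, which edits adenosine to inosine in double-stranded RNA, averaged 17.2 ± 1.85 CPM in dasatinib 1x (SD, n = 3; lowest 15.4), against 7.14 CPM in DMSO 1x. It had 8.95, 16.7 and 12.9 CPM in dasatinib 16x, against 1.26 CPM in DMSO 16x, and 13.1 and 13.6 CPM in the parental line. Its 1x difference of 1.29 ± 0.33 on the log2 scale had an adjusted p of 0.0427, and this call did not hold without any 1 of the 3 dasatinib 1x libraries, of either parental library or of dasatinib 16x C, with an adjusted p of 0.0631 to 0.0955. Cpeb2, which binds the cytoplasmic polyadenylation element of mRNAs, was at 32.3, 29.5 and 34.7 CPM in dasatinib 1x, against 17.9 CPM in DMSO 1x (0.86 ± 0.1, adjusted p = 0.000143 by edgeR). Zc3h12b, a CCCH zinc finger protein of the family of the ribonuclease Regnase-1, was at 3.53, 3.26 and 3.79 CPM in dasatinib 1x, against 1.78 CPM in DMSO 1x. Its change of 1 ± 0.26 (adjusted p = 0.022 by edgeR) was not called without dasatinib 1x A (0.0518) or C (0.0622).

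Of the metabolic members, Fads2 encodes the delta-6 desaturase, the enzyme that starts the synthesis of long polyunsaturated fatty acids. It had 121, 122 and 126 CPM in dasatinib 1x, against 74.7 CPM in DMSO 1x. It had 126, 122 and 116 CPM in dasatinib 16x, against 7.48 CPM in DMSO 16x, and 118 and 112 CPM in the parental line. The dasatinib libraries ran at the parental level, while DMSO 1x stood at 65% of it and DMSO 16x at 6.51% (95% interval 5.78% to 7.37%). The 1x difference was 0.73 ± 0.06 on the log2 scale (adjusted p = 6.67e-06 by edgeR).

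Fut4, the fucosyltransferase that makes the Lewis x antigen (CD15), had 18.4, 17.9 and 17.4 CPM in dasatinib 1x, against 7.52 CPM in DMSO 1x. It had 25, 24.7 and 25.4 CPM in dasatinib 16x, against 0.35 CPM (13 counts) in DMSO 16x, and 16 and 13.8 CPM in the parental line. Every dasatinib library was above both parental ones, and the 3 at 16x above all 3 at 1x. The log2 change was 1.26 ± 0.11 in dasatinib 1x over DMSO 1x (adjusted p = 1.78e-05 by edgeR). In DMSO 16x its level was 2.35% of parental, with a 95% interval of 1.27% to 4.1%.

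Dse, the epimerase that turns glucuronic into iduronic acid in dermatan sulfate, had 4.45, 3.98 and 4.32 CPM in dasatinib 1x, against 1.37 CPM in DMSO 1x. It had 6.85, 5.36 and 7.06 CPM in dasatinib 16x, against 0.296 CPM in DMSO 16x, and 2.13 CPM in each parental library. Its dasatinib levels were well above the parental ones, at 199% in 1x and 302% in 16x. The change at 1x was 1.64 ± 0.24 (adjusted p = 0.000794 by edgeR). Tmlhe, the first enzyme of carnitine synthesis, changed at 1x by 0.68 ± 0.11 (adjusted p = 0.00119 by edgeR). Foxred2, a flavoprotein of endoplasmic reticulum-associated degradation, was counted here but could also stand with protein turnover. It changed by 0.54 ± 0.1 (adjusted p = 0.00359 by edgeR). Gstt2, a theta-class glutathione transferase, had 24.5, 26.5 and 25.2 CPM in dasatinib 1x, against 17 CPM in DMSO 1x (0.59 ± 0.11, adjusted p = 0.0037). Its paralog Gstt3, which is no member, went the other way, at 6.34, 6.97 and 7.23 CPM in dasatinib 1x, against 11 CPM in DMSO 1x (−0.66 ± 0.14, adjusted p = 0.0061). Galc, which degrades galactosylceramide in lysosomes, and Mblac1, a metallo-beta-lactamase fold protein, had log2 changes of 0.85 ± 0.3 and 0.53 ± 0.19 and were not called. Acy3, an aminoacylase, was called at 1.17 ± 0.3 (adjusted p = 0.0423), but without either parental library, dasatinib 16x B or any 1 dasatinib 1x library its adjusted p was 0.0552 to 0.0932.

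The starts of 3 of these genes and of the receptor gene Gpr65, described below, are shown because the first 3 had the smallest adjusted p of all members and Gpr65 lies at the CpG-poor end. Each window holds 250 bases before and 50 after the first-listed RefSeq start, on the coding strand, in build GRCm38.p6. Tdrkh is at chr3:94412994-94413293 (plus strand), Fads2 at chr19:10101454-10101753 (minus), Fut4 at chr9:14752073-14752372 (minus) and Gpr65 at chr12:98268385-98268684 (plus). Capitals mark the GC box GGGCGG, read on both strands.
Tdrkh: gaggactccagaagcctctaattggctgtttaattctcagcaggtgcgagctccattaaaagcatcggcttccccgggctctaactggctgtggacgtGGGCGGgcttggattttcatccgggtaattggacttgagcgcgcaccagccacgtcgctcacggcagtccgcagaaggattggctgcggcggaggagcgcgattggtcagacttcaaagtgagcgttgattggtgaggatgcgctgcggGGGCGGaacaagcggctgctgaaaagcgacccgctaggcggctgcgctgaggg
Fads2: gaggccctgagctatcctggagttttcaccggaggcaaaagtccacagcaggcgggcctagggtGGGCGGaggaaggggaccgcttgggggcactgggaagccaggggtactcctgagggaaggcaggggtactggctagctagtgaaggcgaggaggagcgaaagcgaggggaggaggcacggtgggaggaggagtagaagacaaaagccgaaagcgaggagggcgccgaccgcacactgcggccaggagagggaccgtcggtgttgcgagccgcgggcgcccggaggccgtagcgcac
Fut4: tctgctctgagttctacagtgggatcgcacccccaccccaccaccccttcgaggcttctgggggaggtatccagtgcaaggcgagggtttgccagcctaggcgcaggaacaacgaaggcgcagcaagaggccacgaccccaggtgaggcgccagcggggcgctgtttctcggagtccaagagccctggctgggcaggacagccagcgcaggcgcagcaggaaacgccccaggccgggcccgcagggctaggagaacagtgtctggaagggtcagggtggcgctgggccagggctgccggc
Gpr65: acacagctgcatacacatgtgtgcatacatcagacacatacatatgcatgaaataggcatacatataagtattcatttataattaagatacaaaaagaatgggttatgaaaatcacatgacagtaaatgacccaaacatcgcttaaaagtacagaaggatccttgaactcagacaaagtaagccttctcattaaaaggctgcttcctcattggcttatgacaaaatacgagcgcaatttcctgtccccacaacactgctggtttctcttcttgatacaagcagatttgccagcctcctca
Tdrkh held 2 GC boxes and 25 CG pairs, Fads2 1 box and 23 pairs, Fut4 no box and 18 pairs, and Gpr65 no box and 3 pairs. The GC box was in 67.5% of the 7636 windows of all genes with the parental minimum. None of the 4 windows held the letters of the cAMP response element (TGACGTCA, in 3.6% of those windows), STAT (TTCNNNGAA, 7.14%), EBF1 (TCCC and GGGA parted by 2 bases, 0.891%), RUNX (TGTGGT, 11.9%), IRF (GAAA repeated after 2 bases, 2.91%) or AP-1 (TGANTCA, 4.16%). Both strands were read, and matches of different motifs could share bases. The E-box CANNTG, in 61.4% of those windows and not in capitals, occurred in Tdrkh, Fut4 and Gpr65. A comparison of base composition or motifs between members and other genes is void, since a window was found for only 51 of the 76 members (67.1%).

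Of the immune members, Tnfsf4, the OX40 ligand, had the largest called change at 1x. It had 5.11, 5.42 and 4.07 CPM in dasatinib 1x, against 1.48 CPM in DMSO 1x. It had 3.23, 3.69 and 5.86 CPM in dasatinib 16x, against 1 count (0.0269 CPM) in DMSO 16x, and 2.58 and 2.25 CPM in the parental line. All 6 dasatinib libraries were above both parental ones. The log2 change at 1x was 1.73 ± 0.36 (adjusted p = 0.00801 by edgeR), and DMSO 16x stood at 1.11% of parental, with an interval of 0.0284% to 6.37%.

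Gpr65, a receptor that senses extracellular acid, had 11.4, 13.1 and 11 CPM in dasatinib 1x, against 4.61 CPM in DMSO 1x (1.37 ± 0.23, adjusted p = 0.00244 by edgeR). It had 12.4, 11.3 and 8.01 CPM in dasatinib 16x, against 1.18 CPM in DMSO 16x, and 7.3 and 7.79 CPM in the parental line. Again every dasatinib library was above both parental ones. The guanylate-binding proteins Gbp4 and Gbp9 are interferon-induced GTPases that lie next to each other. Gbp4 had 11.2, 9.9 and 10.5 CPM in dasatinib 1x, against 6.56 CPM in DMSO 1x (0.7 ± 0.18, adjusted p = 0.0212), and Gbp9 had 11.8, 11.6 and 11.6 CPM, against 7.85 CPM (0.59 ± 0.14, adjusted p = 0.0168). Gbp4 was not called without dasatinib 1x A (0.0628) or C (0.0526). Near-identical copies share reads, so these values are uncertain.

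Gbp4 is the sole member among 32 interferon response genes, of which 31 were tested at 1x with 4 higher, 2 lower and a median log2 change of −0.04. Gbp9 is not on that list. The non-members Gbp6 (0.21 ± 0.05, adjusted p = 0.0147) and Gbp3 (0.24 ± 0.07, adjusted p = 0.038) were also higher. Gbp6 stood at 345, 380 and 372 CPM in dasatinib 16x, against 219 CPM in DMSO 16x and 390 and 399 CPM in the parental line. Its DMSO 16x level was thus lower too, but less so than for Gbp4, which had 14.7, 11.7 and 13.1 CPM in dasatinib 16x, against 1.7 CPM in DMSO 16x and 7.99 and 10.4 CPM in the parental line.

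Dntt encodes terminal deoxynucleotidyl transferase, which adds nucleotides at V(D)J joins in immature lymphocytes. It had 43.6, 35.7 and 37.4 CPM in dasatinib 1x, against 19.9 CPM in DMSO 1x. It had 130, 45.7 and 48.4 CPM in dasatinib 16x, against 1.75 CPM in DMSO 16x, and 27.1 and 28.2 CPM in the parental line. All 6 dasatinib libraries exceeded the parental ones, but dasatinib 16x A stood far above B and C, and the 1x difference of 0.98 ± 0.73 was not called (adjusted p = 0.499 by edgeR). With dasatinib 16x A left out the adjusted p of Dntt was 4.19e-05. The recombinase gene Rag1, which acts in the same joining reaction, was no member. It had 21.3, 16.4 and 17.6 CPM in dasatinib 1x, against 56.9 CPM in DMSO 1x, and 8.6, 3.74 and 2.95 CPM in dasatinib 16x, against 20.4 CPM in DMSO 16x and 74.6 and 76.9 CPM in the parental line (1x difference −1.62 ± 0.45, adjusted p = 0.087). Dntt was the sole member among the 31 pro-B and pre-B genes, of which 3 were higher and 5 lower at 1x, with a median of −0.05.

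The other immune members were not called at 1x. Grap2, the adapter Gads, had 37.7, 36.4 and 38.6 CPM in dasatinib 1x, against 17.3 CPM in DMSO 1x (1.13 ± 0.49, adjusted p = 0.24), and Nlrc3, a dampener of innate signalling, had 29.8, 29.4 and 30.2 CPM, against 14.3 CPM (1.07 ± 0.3, adjusted p = 0.0751). Both had low standard deviations in dasatinib 1x, and their wide standard errors go with a wide spread in dasatinib 16x, where Grap2 averaged 33.4 ± 13.4 CPM (SD, n = 3), with library B at 59.3% of parental and A at 142%, and Nlrc3 had 24.8, 14.3 and 16.9 CPM. Tnfrsf26, a receptor of the TNF family, Lif, a cytokine of the interleukin 6 family, and March8, a membrane ubiquitin ligase, had changes of 0.67 ± 0.2, 0.61 ± 0.26 and 0.12 ± 0.22.

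**Figure D3:**
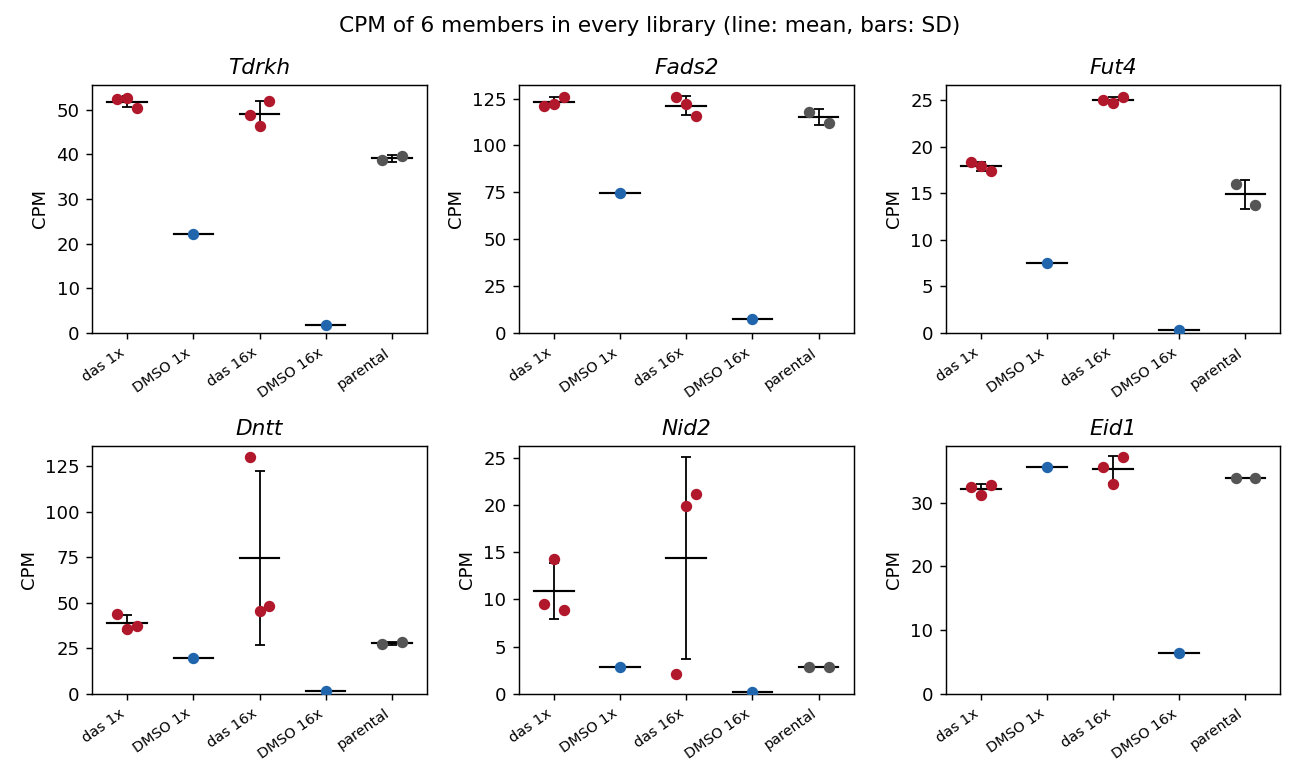
CPM of 6 members in each of the 10 libraries, with a point per library, the group mean as a line and the SD as a bar where there are replicates, on axes that start at 0. In Tdrkh, Fads2 and Fut4 the dasatinib libraries sit together above DMSO 1x, with DMSO 16x near 0; in Dntt and Nid2 the dasatinib 16x libraries spread widely (Dntt 130, 45.7 and 48.4 CPM), and in Eid1 DMSO 1x (35.6 CPM) does not lie below the parental line.

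Of 14 signalling members, 6 were higher at 1x and none was lower, and all 14 had a positive log2 change. Over all 76 members 42 were higher and 71 had a positive change. Rps6ka2, the ribosomal S6 kinase RSK3, had 16.3, 15 and 14.4 CPM in dasatinib 1x, against 6.01 CPM in DMSO 1x (1.36 ± 0.13, adjusted p = 5.14e-05 by edgeR). It had 10.6, 9.64 and 10.7 CPM in dasatinib 16x, against 0.915 CPM in DMSO 16x, and 9.5 and 9.46 CPM in the parental line. The dasatinib 1x level was therefore above the parental one and the 16x level close to it. Pde4d, a phosphodiesterase that breaks down cyclic AMP, had 29.7, 27.7 and 28.7 CPM in dasatinib 1x, against 16.8 CPM in DMSO 1x (0.78 ± 0.08, adjusted p = 9.29e-05). It had 17, 16.8 and 15.9 CPM in dasatinib 16x, against 2.69 CPM in DMSO 16x, and 23.5 and 24.1 CPM in the parental line. In Pde4d the dasatinib 16x libraries lay below the parental ones and close to DMSO 1x.

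Adcy3, an adenylyl cyclase that makes cyclic AMP, had 11.4, 10.3 and 11.4 CPM in dasatinib 1x, against 5.85 CPM in DMSO 1x, and just missed the threshold (0.93 ± 0.27, adjusted p = 0.053 by edgeR). Cdc42bpa, the kinase MRCK alpha that acts below CDC42, changed by 0.91 ± 0.15 (adjusted p = 0.00274). Bmpr2, a type II receptor of bone morphogenetic proteins, changed by 0.73 ± 0.15 (adjusted p = 0.00765). Fgf13, an intracellular fibroblast growth factor homologue, had the smallest called change, at 46.8, 49.4 and 45 CPM in dasatinib 1x, against 36.3 CPM in DMSO 1x (0.39 ± 0.08, adjusted p = 0.00802). Phka1, a regulatory subunit of phosphorylase kinase, was called at 1.11 ± 0.28 with an adjusted p of 0.0473, close to the threshold. Leaving out a parental library, DMSO 16x, dasatinib 16x A or any dasatinib 1x library took it to between 0.0524 and 0.106. Psd3, an exchange factor for ARF6, was not called (1.07 ± 0.64). It had 19.3, 9.2 and 6.57 CPM in dasatinib 16x, against 6 counts (0.161 CPM) in DMSO 16x and 5.47 and 5.73 CPM in the parental line. Map2k6, which activates p38, differed least of the 14 at 1x, at 8.17, 10.2 and 9.21 CPM in dasatinib 1x, on both sides of the 8.51 CPM in DMSO 1x.

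The remaining signalling members were not called. Camk1d, a calmodulin-dependent kinase, and Nck2, an SH2 and SH3 adapter, changed by 0.42 ± 0.22 and 0.33 ± 0.14. Plekha1, a phosphoinositide-binding protein, Cnrip1, which binds the cannabinoid receptor CB1, and Prokr1, a prokineticin receptor, changed by 1.05 ± 0.58, 0.4 ± 0.17 and 0.66 ± 0.32. The standard error of Plekha1 goes with 17.5, 6.81 and 8.39 CPM in dasatinib 16x.

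Of the contact, scaffold and matrix members, Gja1 encodes connexin 43, a gap junction channel. It had 185, 189 and 180 CPM in dasatinib 1x, against 85.8 CPM in DMSO 1x (1.12 ± 0.18, adjusted p = 0.0132 by edgeR). It had 186, 155 and 133 CPM in dasatinib 16x, against 16.9 CPM in DMSO 16x, and 123 and 126 CPM in the parental line. All dasatinib libraries were above both parental ones. Nov, the matricellular protein CCN3, changed by 1.29 ± 0.28 (adjusted p = 0.00946) and Olfml2b, an olfactomedin-like secreted protein, by 0.75 ± 0.16 (adjusted p = 0.01). Cask, a membrane-associated scaffold kinase, had 28.5, 28.3 and 28.3 CPM in dasatinib 1x, against 18.8 CPM in DMSO 1x (0.61 ± 0.15, adjusted p = 0.0291). In DMSO 16x Cask had 1.05 CPM, or 3.89% of parental. Its call was lost without any 1 dasatinib 1x library (0.0703 to 0.0781).

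Utrn, the dystrophin homologue utrophin, had 78.5, 67.8 and 73.8 CPM in dasatinib 1x, against 46.2 CPM in DMSO 1x, and was not called (0.68 ± 0.19, adjusted p = 0.0695). Inadl, the polarity scaffold PATJ, changed by 0.88 ± 0.28 (adjusted p = 0.0688). Nid2, the basement membrane protein nidogen-2, had the widest spread of all members. It had 9.5, 14.3 and 8.89 CPM in dasatinib 1x, against 2.83 CPM in DMSO 1x. It had 2.1, 19.9 and 21.2 CPM in dasatinib 16x, against 0.188 CPM in DMSO 16x, and 2.82 and 2.83 CPM in the parental line. Dasatinib 16x A was below the parental line and the other 5 dasatinib libraries far above it, and DMSO 1x was at the parental level. The 1x change of Nid2 was 1.96 ± 1.37, the largest of all members, and was not called (adjusted p = 0.467).

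Of the protein turnover members, Ubqln2, the ubiquitin-like shuttle protein ubiquilin 2, had 93.8, 91.3 and 95.3 CPM in dasatinib 1x, against 65.5 CPM in DMSO 1x (0.53 ± 0.05, adjusted p = 5.41e-05 by edgeR). It had 70.4, 74.3 and 68.7 CPM in dasatinib 16x, against 19.5 CPM in DMSO 16x, and 92 and 91.6 CPM in the parental line. Dasatinib 16x thus stood between the parental and the DMSO 1x levels. Pja1, a RING ubiquitin ligase, changed by 0.89 ± 0.12 (adjusted p = 0.000615), Fam134b, an endoplasmic reticulum-phagy receptor, by 0.99 ± 0.19 (adjusted p = 0.00466), and Fbxw17, an F-box protein, by 1.06 ± 0.23 (adjusted p = 0.00861). Herc3, a HECT ubiquitin ligase, had 17.2, 17.8 and 17 CPM in dasatinib 1x, against 9.52 CPM in DMSO 1x, and was not called (0.88 ± 0.27, adjusted p = 0.0779).

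Among the chromatin and zinc finger members, Zfp518a had 39.1, 34.4 and 38.6 CPM in dasatinib 1x, against 20.9 CPM in DMSO 1x (0.85 ± 0.08, adjusted p = 4.18e-05 by edgeR). It had 36.8, 37.6 and 36.7 CPM in dasatinib 16x, against 1.43 CPM in DMSO 16x, and 34.9 and 33.8 CPM in the parental line. Its dasatinib libraries stayed near the parental level at both steps. Hmgn3, a nucleosome-binding protein, changed by 0.48 ± 0.06 (adjusted p = 0.000398), Zfp248 by 1.47 ± 0.3 (adjusted p = 0.00637) and Zfp820 by 0.84 ± 0.22 (adjusted p = 0.0219). Zfp820 was not called without dasatinib 1x B (0.0534) or C (0.069). Zfp704, Zfp870 and Bend4, a BEN domain protein, were not called, with changes of 1.36 ± 0.56, 0.31 ± 0.22 and 0.46 ± 0.16. Zinc finger genes have close copies, so their values are uncertain.

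Eid1, which binds p300 and the retinoblastoma protein, was an exception to the stepwise pattern. It had 32.5, 31.2 and 32.7 CPM in dasatinib 1x, against 35.6 CPM in DMSO 1x. It had 35.6, 32.9 and 37.2 CPM in dasatinib 16x, against 6.46 CPM in DMSO 16x, and 33.9 CPM in each parental library. DMSO 1x was above the parental line, and the low level was seen in DMSO 16x alone. The 1x change was −0.13 ± 0.08 (adjusted p = 0.333 by edgeR).

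Of the transporters, Abcg2, which exports many drugs, had 14, 11.7 and 12.3 CPM in dasatinib 1x, against 6.06 CPM in DMSO 1x (1.08 ± 0.27, adjusted p = 0.0292 by edgeR). It had 8.86, 6.64 and 4.94 CPM in dasatinib 16x, against 1.88 CPM in DMSO 16x, and 9.26 and 9 CPM in the parental line. Every dasatinib 16x library was therefore below the parental ones, and every dasatinib 1x library above them. The 1x call was lost without dasatinib 1x A (0.0717) or C (0.0653) or without either parental library (0.0573 and 0.057). Abcg3, a related gene on chromosome 5, had 5.71, 5.15 and 5.1 CPM in dasatinib 1x, against 4.03 CPM in DMSO 1x, and was not called (0.41 ± 0.24). Slc2a6, the glucose transporter GLUT6, changed by 0.61 ± 0.23 and was not called. Mfsd2a, a lysophospholipid transporter, had 1.17, 1.02 and 1.41 CPM in dasatinib 1x, against 1.84 CPM in DMSO 1x, and 4.02, 3.54 and 1.61 CPM in dasatinib 16x, against 0.619 CPM in DMSO 16x and 2.62 and 3.19 CPM in the parental line. It was one of the members that stood below the parental line in all 3 dasatinib 1x libraries.

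Among the ungrouped members, Dnahc8, an axonemal dynein heavy chain, had 29.5, 29.8 and 32.2 CPM in dasatinib 1x, against 18 CPM in DMSO 1x (0.78 ± 0.13, adjusted p = 0.00327 by edgeR). Armcx3, an armadillo repeat protein of the mitochondrial outer membrane, changed by 0.93 ± 0.1 (adjusted p = 8.56e-05), Sh3bgrl2, an SH3-binding glutamic acid-rich-like protein, by 0.76 ± 0.15 (adjusted p = 0.00542), and Enthd1, an ENTH domain protein, by 1.38 ± 0.26 (adjusted p = 0.00428). Pion, the gamma-secretase activating protein, had 5.08, 4.75 and 4.12 CPM in dasatinib 1x, against 2.22 CPM in DMSO 1x (1.08 ± 0.26, adjusted p = 0.017). It had 4 counts in DMSO 16x, or 2.38% of parental (95% interval 0.633% to 6.05%), and its 1x call was lost without dasatinib 1x A (0.051). Maged2, a MAGE family protein, was not called (0.41 ± 0.32). Bbs7, a subunit of the BBSome of cilia, had 2.11, 1.12 and 1.05 CPM in dasatinib 1x, against 2.77 CPM in DMSO 1x (−0.96 ± 0.81), and 6.72, 1.5 and 3.07 CPM in dasatinib 16x, against 0.215 CPM in DMSO 16x and 2.55 and 2.52 CPM in the parental line. The other 7 ungrouped members are predicted genes or transcripts without a name.

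P2ry13, a receptor for ADP, had a negative change at 1x, at 8.08, 7.76 and 6.45 CPM in dasatinib 1x, against 8.81 CPM in DMSO 1x (−0.23 ± 0.21). It had 18.9, 14.6 and 12.6 CPM in dasatinib 16x, against 2.05 CPM in DMSO 16x, and 9.5 and 8.9 CPM in the parental line. All 3 dasatinib 16x libraries exceeded every other library. Its span overlaps that of the gene Med12l. Overlap was read from whole gene spans and not exons, and the strand setting of the counting is not given in the sources used here. Whether such a pair shares reads is thus not known. The other overlapping members are Zfp704 with C030034L19Rik, Armcx3 with Armcx6, Adcy3 with Cenpo, Zc3h12b with Las1l and Nid2 with 2700060E02Rik.

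Between the dose steps, 6 members were higher in dasatinib 16x than in dasatinib 1x, against 6.93% of all genes tested, and 13 were lower, against 6.04%. Since a floor on the dasatinib 16x values chose the members, these counts and differences are a description, and nothing is read from them. The 6 that were higher were Cpeb2, Fut4, P2ry13, Mfsd2a, Slc2a6 and Dse. P2ry13 differed by 1.05 ± 0.15 on the log2 scale (SE), and Mfsd2a by 1.34 ± 0.31. The 13 that were lower were Ubqln2, Utrn, Hmgn3, Fgf13, Tnfrsf26, Pde4d, Bend4, Acy3, Sh3bgrl2, Olfml2b, Cnrip1, Rps6ka2 and Abcg2. Among them Pde4d differed by −0.79 ± 0.06 and Abcg2 by −0.89 ± 0.18. Without dasatinib 1x A or B, 2 members were higher, and without C 3. Without any 1 of them 8 were lower, and without dasatinib 16x A 25 were lower.

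The dasatinib 16x libraries, whose values helped to choose the members, differed among themselves. The median coefficient of variation over the members was 6.54% in dasatinib 1x, 16.9% in dasatinib 16x and 4.31% in the parental line, against 3.58%, 4.64% and 2.08% over all genes with the parental minimum. Over the other 84 genes that met the limit in DMSO 16x it was wider than over the members, at 15.1% in dasatinib 1x and 57.7% in dasatinib 16x, with 3.91% in the parental line. In 8 members (10.5%, against 2.75% of all genes) the highest dasatinib 16x library was at least 2 times the lowest, namely Nid2, Bbs7, Psd3, Dntt, Plekha1, Zfp704, Mfsd2a and Grap2. In dasatinib 1x this was so in 1 member, Bbs7 (1.32%, against 0.566%). Dasatinib 16x A was the highest of the 3 for 46 of the 76 members, and C the lowest for 40. Over all 9711 genes with the parental minimum these counts were 3357 and 3338. Over the other 84 genes they were 53 and 39, so the tilt was not particular to the members. The members' medians relative to parental were 108% in A, 96.6% in B and 91.8% in C.

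The spread of dasatinib 16x entered the error of the 1x comparison, because all 5 groups shared one fit. Without dasatinib 16x A, 57 members were called higher at 1x, and over all genes tested 1110 were, against 864 with it. The 16 gained were Adcy3, Bend4, Camk1d, Cnrip1, Dntt, Galc, Herc3, Inadl, Nid2, Nlrc3, Plekha1, Psd3, Tnfrsf26, Utrn, Zfp704 and 1700025G04Rik, with an adjusted p between 5.76e-06 for Nlrc3 and 0.043 for Galc. Nid2 was at 0.00416 and Herc3 at 6.46e-05 in that fit. Without dasatinib 16x B, 6 uncalled members passed, among them Grap2 (0.000311) and Lif (0.0251), and without C again 6, among them Utrn (0.011). Without dasatinib 1x B the predicted gene C030034L19Rik passed (0.0261). The log2 changes themselves are differences between the 1x groups.

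Of the 160 genes that met the limit in DMSO 16x, the other 84 were not held in every dasatinib 16x library, and they give the closest comparison. Their median was 62.3% of parental in DMSO 1x and 10.7% in DMSO 16x, against 65.2% and 11.6% for the members. Both sets met the same limit in DMSO 16x, so their likeness there was set by the choice. In dasatinib 1x, a group that did not choose either set, the median of the 84 was 64.7%, against 109% for the members. The median log2 change of dasatinib 1x over DMSO 1x was 0.09 for the 84 and 0.78 for the members. Calls at 1x are not compared between the sets. The dasatinib 16x spread, wider in the 84 by the way they were split, entered the error of that fit. Every dasatinib 1x library was above DMSO 1x for 36 of the 84 (42.9%), against 69 of the 76 members (90.8%). Relative to the parental line, every dasatinib 1x library was higher for 38 members (50%) and for 6 of the other 84 (7.14%), against 19.8% of all genes. Every one was lower for 10 members (13.2%) and for 61 of the 84 (72.6%), against 29.4% of all genes. The dasatinib 16x mean was above the parental mean for 40 members (52.6%), against 46.6% of all genes, a count that the choice of members bears on. Since the sets were split by the dasatinib 16x lines, which are related to the 1x lines, these are descriptions without a test.

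Chromosomes were found for 71 of the 76 members by gene name. The X chromosome held 9 members among 307 genes (2.93%), against 71 among 9383 genes (0.757%) in the genome. They were Ubqln2, Fgf13, Cask, Pja1, Phka1, Armcx3, Tmlhe, Maged2 and Zc3h12b. Of all genes below 0.25 of parental in DMSO 16x, 15 were on the X, or 4.89% of its genes, against 1.65%. The median X gene stood at 98.7% of parental in dasatinib 1x, 98.1% in dasatinib 16x, 101% in DMSO 1x and 101% in DMSO 16x, so the chromosome as a whole kept its level in the DMSO lines.

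Chromosome 5 held 7 members among 634 genes (1.1%), namely Cpeb2, Bend4, Gbp9, Gbp4, Abcg3, Pion and Mblac1. Here the whole chromosome was lower in the DMSO lines, with a median gene at 104% of parental in dasatinib 1x, 104% in dasatinib 16x, 88.5% in DMSO 1x and 71.8% in DMSO 16x. By the limit that chose them, the 7 members had to stand lower than this in DMSO 16x, and were at 22.1% of parental or less. The part of this shift in their values was not tested. Chromosome 18 had the same shift, at 88.9% in DMSO 1x and 70.2% in DMSO 16x, and held no member. The 69 members not on chromosome 5 or 18 had a median log2 change of 0.84 in dasatinib 1x over DMSO 1x. It was 0.78 over all 76 members and −0.001 over all genes tested, those of chromosomes 5 and 18 included.

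**Figure D4:**
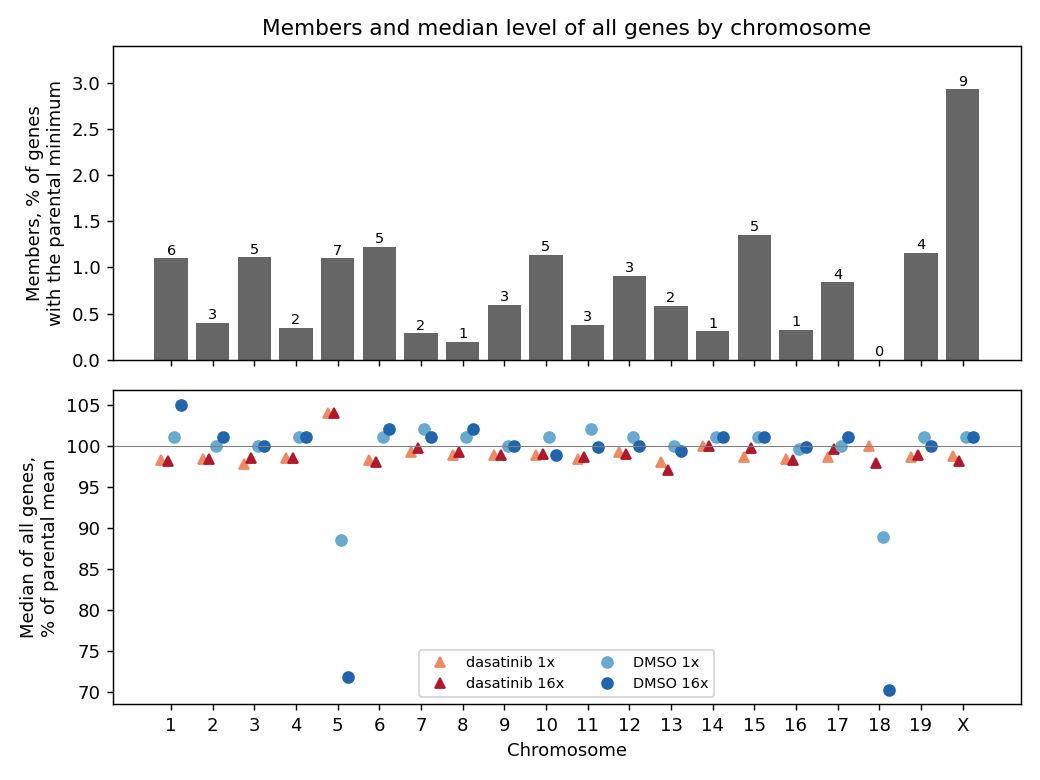
Upper panel: members as a percent of the genes with the parental minimum on each chromosome, with the number of members above each bar. Lower panel: median over all such genes of a chromosome, as a percent of parental, in each treated group; the X holds 2.93% members at medians near 100%, and chromosomes 5 and 18 have the low DMSO 16x medians of 71.8% and 70.2%.

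Apart from neighbours that were members themselves, the genes beside the members mostly did not share their low level. Over 128 neighbouring genes with the parental minimum that were not members, the median in DMSO 16x was 97.7% of parental, and 7 (5.47%) were below 50%, against 3.82% of all genes. Among the 7, Elovl4 beside Sh3bgrl2 (10.1%) and Vopp1 beside Abcg2 (11.7%) met the DMSO 16x limit too. Direct neighbours among the members formed 6 pairs, Grap2 and Enthd1, Zfp704 and C030034L19Rik, Herc3 and Abcg2, Abcg3 and Gbp9, Gbp9 and Gbp4, and Gpr65 and Galc. Being low by the rule, these neighbours were left out of the median and share above. Members make up 76 of the 9711 genes with the parental minimum, and whether they lie together more than other genes was not tested.

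Lists of other gene families could hold members only among their genes with the parental minimum, of which 76 in 9711 were members over the table. Dntt was 1 of 29 such pro-B and pre-B genes and Gbp4 1 of 14 such interferon response genes. P2ry13 was 1 of 13 such G protein regulators and purinergic receptors (23 tested at 1x, 0 higher, 3 lower, median −0.04). Gstt2 was 1 of 17 such glutathione and xenobiotic enzymes (25 tested, 3 higher, 5 lower, median −0.12). The adhesion and migration list had 17 such genes and no member (24 tested, 2 higher, 4 lower, median −0.09), and that of protocadherins, cadherins and semaphorins 16 and no member (20 tested, 2 higher, 4 lower, median −0.26). These numbers are too small to set a list apart. MHC class II genes (10 tested, 1 higher, 4 lower, median −1.02) had 3 genes with the parental minimum and imprinted genes (13 tested, 0 higher, 3 lower, median −0.07) had 8. The germline list had none, so that no germline gene could be a member (3 tested, 0 higher, 1 lower, median −0.18). The marker lists gave 1 higher and 1 lower of 10 tested T and NK genes (median 0.09), 2 higher and 2 lower of 8 erythroid and megakaryocytic genes (median 0.01), and none of 6 myeloid genes (median −0.24) or of 1 stromal gene (0.08).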

How the data were processed

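The values are raw counts per gene in 1 table that the authors deposited for the 10 libraries. Tools named in the submitters' processing notes are HTSeq 0.6.1, DESeq, SAMtools, BWA 0.7.10, TopHat2 2.0.12, Trimmomatic 0.33 and CASAVA 1.7.0, with mm9 as the build. Whether counting used strand is not given in the sources used here. Normalized values were not used.

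CPM are counts divided by the column total, times 1000000, with no length correction. Counts were tested with edgeR 4.0.16 (robust quasi-likelihood) in R 4.3.3, with TMM scaling and filterByExpr at a minimum count of 10, in a fit of 5 groups. The fit had 5 residual degrees of freedom and a biological coefficient of variation of 7.29%. Over the 12993 genes tested, 3310 had an unadjusted p under 0.05 in dasatinib 1x against DMSO 1x. P-values were adjusted by Benjamini and Hochberg over all genes tested, at 0.05. The script was tested on simulated data.

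Library totals set the counting error, and the text gives exact binomial intervals at 95% for low values. No pair of replicates agreed within sampling noise (chi-square per degree of freedom 1.91 to 16.7). The labels call the dasatinib libraries biological replicates and the parental ones replicates, but do not say that any were separate cultures. The p-values reflect the spread among these libraries alone, and how much of it is technical is not known.

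The members and the lists were chosen with earlier results of these data known, and no test was made over the member list. The naming rule took the 10 members with the highest parental CPM, the 10 with the lowest DMSO 16x ratio, the 6 highest and 6 lowest called changes, list members and the 2 genes on each side of a limit, and left out most predicted genes. The other members are named by role, chosen after their values were seen. The alternatives were RLE scaling, DESeq2 1.42.0, limma-voom with limma 3.58.1, no filter, a replicate block, only the 2 groups compared, a 2-fold threshold, no genes of chromosomes 5 and 18, other limits of the rule and leaving out each library. Chromosomes, neighbours and promoter windows came by gene name from RefSeq tables of GRCm38.p6, and no mm9 coordinates are given.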

Additional observations from a re-analysis of the deposited data

How the results depend on the processing

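In dasatinib 1x against DMSO 1x, 42 members were called higher, and RLE scaling gave 42, DESeq2 48, limma-voom 39, no filter 40, only the 2 groups 60, and no genes of chromosomes 5 and 18 35. Leaving out 1 library gave 34 to 57. A test against a 2-fold threshold gave 0 members, with 4 genes higher and 185 lower over the table. No member was called lower under any of these settings. Of the 42, 33 kept the call under each of these settings that tested them, but for the 2-fold threshold (Cpeb2 and Gbp9, on chromosome 5, were not tested without its genes), and 9 lost it without at least 1 library: Abcg2, Acy3, Adarb1, Cask, Gbp4, Phka1, Pion, Zc3h12b and Zfp820. Over all genes, 864 were higher, and only the 2 groups gave 1334, no genes of chromosomes 5 and 18 gave 368, and leaving out a library 587 to 1110. The count lower, 908, ran over 642 to 1161 when a library was left out. With the replicate block, 44 members were higher at 1x, 4 were higher and 14 lower in dasatinib 16x against dasatinib 1x. Deviations from the group means correlated by 0.03 to 0.051 between 1x and 16x libraries of the same letter. Between different letters the correlations were −0.035 to 0.002, so each library correlated best with its own letter. Values this small cannot tell whether the letters pair the samples.

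In dasatinib 16x against dasatinib 1x, 2 to 9 members were higher and 8 to 25 lower when a library was left out, against 6 and 13. The number of members, 76, was 53 to 97 under the other limits, 77 with TMM-scaled CPM and 78 to 89 without 1 library. The DMSO 1x median of 65.2% was 65.7% with TMM-scaled CPM, and 65.1% and 65.4% without a parental library. At a limit of 0.33 of parental in place of 0.5, 0 members were below it in DMSO 1x, and at 0.67 41 were, against 4, and 5 without either parental library. The cause of these differences was not tested. DMSO 1x and DMSO 16x are 1 library each, so DMSO 1x could not be left out, and the counts of members with few reads in DMSO 16x limit how low a level can be told from 0.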
